A study of Saccharomyces cerevisiae with 8 samples.

Results

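The galactose regulon is described here through 10 budding yeast genes, *GAL1*, *GAL2*, *GAL3*, *GAL4*, *GAL7*, *GAL10*, *GAL80*, *GCY1*, *PGM2* and *MTH1*. They were taken by name from the R64 (sacCer3) annotation, as genes induced by galactose or genes that regulate this induction, and are 10 of the 6002 nuclear protein-coding genes. The rule itself uses no measured value. For each gene, peaks were counted in the reading frame, in the 500 bp upstream of its start and in the 500 bp downstream of its end.

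The study mapped Cse4, the CENP-A histone of budding yeast that takes the place of H3 at centromeres, by ChIP-seq of the Flag-tagged protein in 4 haploid strains of the W303 background. In all 4 the only source of Cse4 driven by the *CSE4* promoter was a tagged copy, *3Flag-CSE4*, at *URA3*, since the native gene had been removed. The *3Flag-CSE4* strain had no further change, and *psh1Δ 3Flag-CSE4* also lacked Psh1, the ubiquitin ligase that targets Cse4 for degradation. The *pGAL-3Flag-CSE4* strain carried an additional copy at *LEU2* under the *GAL* promoter, and *psh1Δ pGAL-3Flag-CSE4* carried that copy and lacked Psh1. Every culture, with or without the *GAL* copy, was grown asynchronously in lactic acid medium and received 2% galactose for 2 h. Therefore all 4 strains were under inducing conditions, and none of the libraries used here came from cells without galactose. All samples were crosslinked with 1% formaldehyde for 15 min before nuclei were isolated. Each strain gave 1 input library of MNase-digested chromatin and 1 ChIP library. With 1 library per strain and type no difference between strains could be tested, and the values below are descriptions. RNA was not measured in these libraries. Where 4 values stand in a row without names, they are in the order *3Flag-CSE4*, then *psh1Δ 3Flag-CSE4*, then *pGAL-3Flag-CSE4*, with *psh1Δ pGAL-3Flag-CSE4* last.

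The 4 input lists held 18908 to 40108 peaks, and the list of *psh1Δ pGAL-3Flag-CSE4* was the shortest. The ChIP lists held 17, 66, 4043 and 14199 peaks. The *PSH1* gene was overlapped by 8 input peaks in each *PSH1* strain and by 0 in each *psh1Δ* strain. The lists give the position of each peak but no height, and the read depth of the libraries cannot be read from them and was not used here. ChIP peaks had been called by the authors on coverage from which the input was subtracted, so the input in a region is part of the ChIP value there.

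In galactose, the sugar enters the cell through a permease and is converted to glucose phosphate by the enzymes of the Leloir pathway. The activator Gal4 binds upstream of these genes and is held inactive by Gal80 until Gal3, bound to galactose, relieves the inhibition. Induced *GAL* genes are among the most strongly transcribed genes of yeast, and their nucleosomes have long been studied as an example of chromatin that is remodelled during transcription.

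Gal4 binds as a dimer to a pair of CGG triplets in opposite orientation, 11 bases apart. The motif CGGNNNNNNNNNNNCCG was searched on both strands, and since it is its own reverse complement each match counts once. It was found in the upstream window of 9 of the 10 genes, compared to 2.98% of the 6002 upstream windows. As known Gal4 targets were part of the choice of genes, the count of 9 describes the members. *GAL2* had 4 matches, *GAL1* and *GAL10* shared 3, and *GAL7*, *GAL4*, *GAL80*, *GAL3*, *GCY1* and *MTH1* had 1 each, which makes 13 distinct matches. The *GAL2* matches that start at 289879 and 289884 overlap each other. *PGM2* had 0 matches in this window. The match of *GAL4* is centred 462 bp upstream, inside the reading frame of the next gene, *YPL247C*. The matches under a ChIP peak of *psh1Δ pGAL-3Flag-CSE4* outside the *GAL1*-*GAL10* region, and a pair of the *GAL2* matches that lie under no peak of any library, are shown from the R64 sequence of RefSeq with the CGG and CCG triplets in capitals and 6 bases on either side.
GAL7 match (chrII:275697-275725, minus strand): agcgctCGGacaactgttgaCCGtgatcc
GAL80 match (chrXIII:171416-171444, plus strand): atttacCGGcgcactctcgcCCGaacgac
GAL3 match (chrIV:463140-463168, plus strand): cacgttCGGtccactgtgtgCCGaacatg
GCY1 match (chrXV:550739-550767, plus strand): aacaatCGGggcagactattCCGgggaag
GAL2 match (chrXII:289790-289818, plus strand): aggcacCGGcggtctttcgtCCGtgcgga
GAL2 match (chrXII:289809-289837, plus strand): tccgtgCGGagatatctgcgCCGttcagg

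The input lists, which map nucleosome-sized MNase-resistant fragments, had few peaks inside the regulon. Of the 10 reading frames, 4 were overlapped by an input peak in each of the first 3 strains, and 1 in *psh1Δ pGAL-3Flag-CSE4*. Over all 6002 genes the shares were 90.9%, 88.6%, 90.7% and 77.1% in the order of strains. The shortest member is 939 bp long, so the members were also set against the 3796 genes of at least that length. Of these, 6.14%, 8.19%, 6.82% and 18.5% had no input peak in the reading frame, compared to 6, 6, 6 and 9 of the 10 members. The same 6 genes, *GAL1*, *GAL2*, *GAL7*, *GAL10*, *GCY1* and *MTH1*, had no input peak in any of the 4 lists, and 5.01% of the genes of that length shared this.

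Many genes without input peaks lie in repeated sequence, where short reads cannot be placed at a single position. By the R64 sequence the regulon genes do not. The W303 sequence of the strains was not examined. Of the 24-base words in each gene with its windows (24 bases is the length of a read), 99.6% to 100% occurred once in the genome. Among the 3502 genes of at least 939 bp with at least 95% unique words, the shares without an input peak were 1.68%, 3.66%, 2.51% and 14.1%, and 33 genes (0.942%) had no peak in any of the 4 inputs. These 33 included the 6 regulon genes. When the upstream and downstream windows were added, 2, 1, 1 and 3 members had no input peak at all, compared to 2.42%, 2.40%, 2.11% and 4.06% of the 3796 genes, and 1.84% of the 3796 had none in any strain. Among the genes with unique words, 3 of the 3502 (0.0857%) had no input peak in any strain, and *GAL2* was 1 of the 3.

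Peak density was then compared by role, as peak centres per kb of reading frame divided by the density over all genes of the same library. In the genes of galactose uptake and conversion (*GAL2*, *GAL1*, *GAL7*, *GAL10* and *PGM2*), the 4 inputs held 4, 2, 0 and 0 centres, where the all-gene density would give 27, 19.4, 25.3 and 9.91. The ratios were 0.148 and 0.103 without the *GAL* copy and 0 with it. All of the 4 and 2 centres lay in *PGM2*, so the contrast is that of 1 gene. In *pGAL-3Flag-CSE4* a peak centred past the end of *PGM2* still covered 74 bp of its frame. A count of 0 allows a ratio of up to 0.118 in *pGAL-3Flag-CSE4* and, in the shorter list of *psh1Δ pGAL-3Flag-CSE4*, of up to 0.303, taking 3 counts as the limit. The genes of the Gal4 circuit (*GAL4*, *GAL80* and *GAL3*) had ratios of 0.992, 0.846, 0.765 and 0.15, with 18, 11, 13 and 1 centres. For *GCY1* and *MTH1* together the count was 0 in all inputs, and this allows ratios of up to 0.407, 0.568, 0.435 and 1.11. The last of these limits lies above 1, so at that list's density a shortage in *GCY1* and *MTH1* was not detectable. All 10 genes together had ratios of 0.419, 0.345, 0.264 and 0.0519, from 22, 13, 13 and 1 centres.

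**Figure D1:**
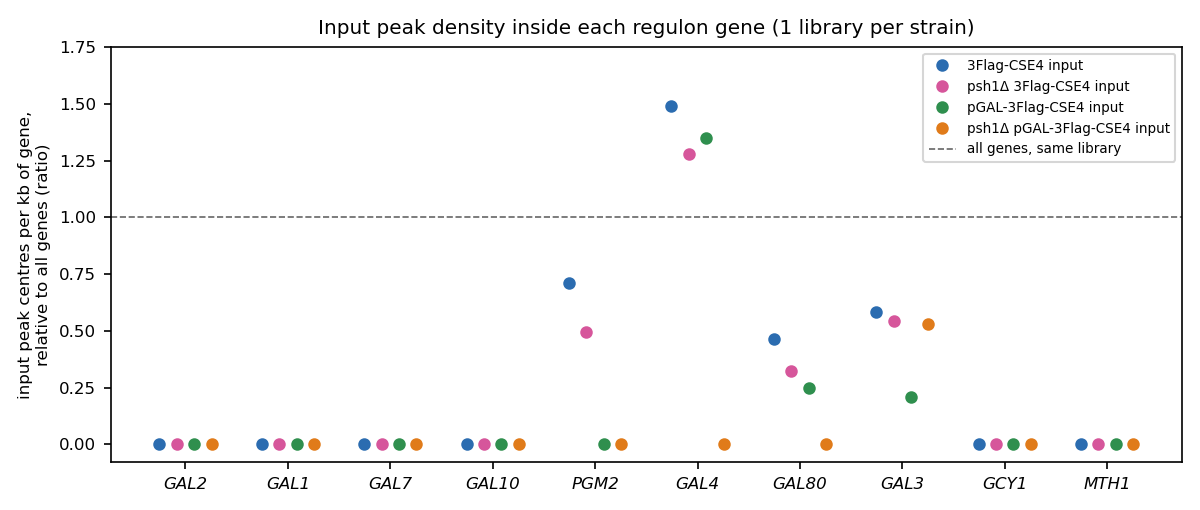
Input peak centres per kb of each reading frame, divided by the density over all genes of the same library (y axis, ratio, dashed line at 1), for the 10 genes (x axis) in the 4 strains, with 1 point per library. *GAL4* lies above 1 in every input except that of *psh1Δ pGAL-3Flag-CSE4*, where it is at 0, and *GAL2*, *GAL1*, *GAL7*, *GAL10*, *GCY1* and *MTH1* are at 0 in all 4. For each gene at 0 in all 4, the 0 in *psh1Δ pGAL-3Flag-CSE4* allows a ratio above 1, from 1.19 for *GAL10* to 2.65 for *GCY1*.

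*GAL2* (YLR081W, chromosome XII, 290212 to 291936, plus strand) encodes the galactose permease. Its reading frame and both windows held 0 input peaks in each of the 4 strains. The stretch without an input peak around it was 3559, 3699, 3079 and 4809 bp long. All 4 stretches held the whole gene, and the median stretch between neighbouring peaks was 89, 109, 89 and 129 bp. The *3Flag-CSE4* stretch ranked 72 among 39923 by length.

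*GAL7*, *GAL10* and *GAL1* lie next to each other on chromosome II. *GAL7* (YBR018C, 274427 to 275527, minus strand) encodes the uridylyltransferase, *GAL10* (YBR019C, 276253 to 278352, minus strand) the epimerase with mutarotase activity, and *GAL1* (YBR020W, 279021 to 280607, plus strand) the galactokinase. An antisense RNA, YNCB0008W, is annotated over *GAL10* and *GAL1*, from 276805 to 280645. The 3 reading frames held 0 input peaks in all 4 strains, and the interval between *GAL7* and *GAL10* held none either. A single stretch without peaks ran over both *GAL7* and *GAL10* and measured 4569, 4539, 4159 and 4639 bp in the order of strains above. Over *GAL1* the stretch was 3209, 4329, 2169 and 4039 bp. Input peaks were seen at the edges of the cluster. Past the end of *GAL7* there were 1, 1, 2 and 0 peaks in the order of strains, the nearest centred 212 bp from the gene end in *pGAL-3Flag-CSE4*. The remaining input peak of the cluster lay between *GAL1* and *GAL10* and is treated on its own below. For *GAL1*, *GAL2*, *GAL7* and *GAL10* together, grouped after their values were seen, 0 centres stood against 21.4, 15.4, 20.1 and 7.85 at the all-gene density. Since the group was formed with these counts known, they describe its genes and set no limit on the ratio.

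**Figure D2:**
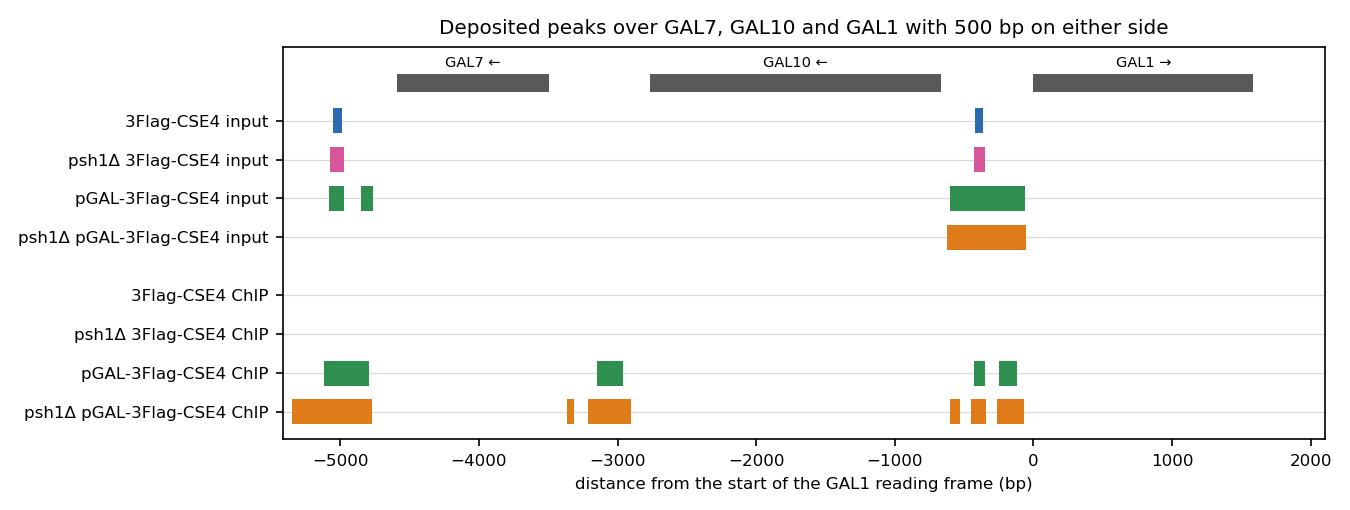
Deposited peaks over *GAL7*, *GAL10* and *GAL1* and 500 bp on either side (x axis, bp from the start of *GAL1*, arrows give the direction of transcription), with 1 row per library and each bar drawn from the start to the end of a peak. No bar of any library lies on a reading frame, and the input bar between *GAL10* and *GAL1* is 61 and 81 bp wide without the *GAL* copy but 541 and 571 bp wide with it.

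*PGM2* (YMR105C, chromosome XIII, 475897 to 477606, minus strand) encodes the main phosphoglucomutase, which passes the product of the pathway on to glycolysis. Over the reading frame and windows there were 9, 6, 2 and 3 input peaks, so the *3Flag-CSE4* input had the most. In that input the centres inside the frame lay 31, 1151, 1461 and 1661 bp from its start, with no centre between the first and the second of these. In *pGAL-3Flag-CSE4* no centre lay inside, and a peak of 351 bp ran over the gene end. No other gene of uptake and conversion had an input peak in its frame.

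*GAL4* (YPL248C, chromosome XVI, 79711 to 82356, minus strand), the gene of the activator itself, had more input peaks than any other member in the first 3 strains but not in *psh1Δ pGAL-3Flag-CSE4*. An antisense RNA, YNCP0002W, is annotated over it from 79562 to 82648. Its frame held 13, 8 and 11 input peak centres in the first 3 strains, with density ratios of 1.49, 1.28 and 1.35. The median spacing of neighbouring centres was 178, 165 and 165 bp, and the widest gaps between centres measured 405, 935 and 610 bp, so the row of peaks was broken in places. Peaks covered 41.9%, 20.3% and 32% of its bases. In *psh1Δ pGAL-3Flag-CSE4* the same frame held 0 centres where 3.19 would be reached at that list's density, which allows a ratio of up to 0.941. The stretch without a peak there was 4589 bp, compared to 359, 859 and 539 bp in the other strains.

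*GAL80* (YML051W, chromosome XIII, 171594 to 172901, plus strand) encodes the inhibitor of Gal4, and *GAL3* (YDR009W, chromosome IV, 463434 to 464996, plus strand) the galactose sensor that relieves it. *GAL80* with its windows had 6, 4, 4 and 3 input peaks in the order of strains, and *GAL3* had 8, 4, 4 and 3. The density ratio inside the frame was 0.465, 0.324, 0.248 and 0 for *GAL80*, and 0.584, 0.543, 0.208 and 0.531 for *GAL3*. In *psh1Δ pGAL-3Flag-CSE4* the 0 of *GAL80* allows a ratio of up to 1.9, so a shortage was not detectable there. The *GAL3* ratio in that strain rests on 1 centre, where 1.88 would be reached at the list's density. In both genes the centres inside the frame lay towards the 3′ end, at 991 and 1191 bp from the start of *GAL80* and at 1156, 1356 and 1536 bp from the start of *GAL3* in *3Flag-CSE4*. For *GAL80*, *GAL3* and *PGM2* together, a grouping made after the values were seen, 1 centre lay before and 8 after the gene midpoint in *3Flag-CSE4*. In the other 3 inputs the counts were 1 before and 4 after it, 0 and 2, and 0 and 1. Over all genes 49.6%, 54.9%, 52.5% and 70.2% of centres lay before the midpoint. *GAL4*, with 7 before and 6 after in *3Flag-CSE4*, did not show this lean.

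*GCY1* (YOR120W, chromosome XV, 551114 to 552052, plus strand) encodes an aldo-keto reductase induced by galactose, and *MTH1* (YDR277C, chromosome IV, 1014401 to 1015702, minus strand) a corepressor of hexose transporter genes. The only input peak near *GCY1* lay past its end, at the 3′ end of the convergent *PFY1*, and was present in 3 strains with widths of 111, 81 and 101 bp but not in *psh1Δ pGAL-3Flag-CSE4*. *MTH1* with its windows had 0, 1, 2 and 1 input peaks, and all lay outside the reading frame. The stretch without a peak was 1729, 1759, 1719 and 2289 bp at *GCY1* and 2429, 2249, 1629 and 2229 bp at *MTH1*.

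**Figure D3:**
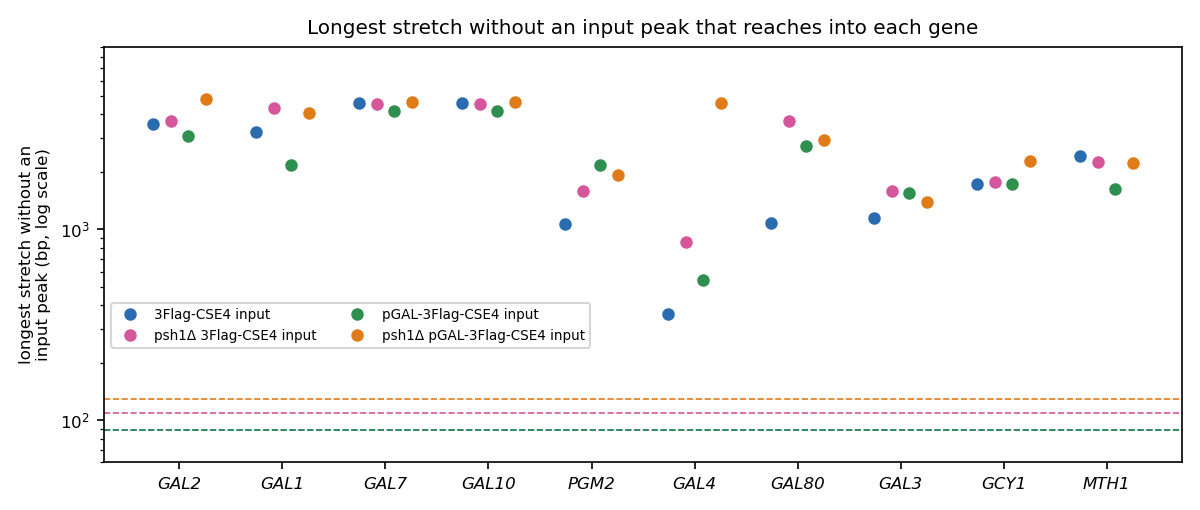
Longest stretch without an input peak that reaches into each of the 10 reading frames (y axis, bp on a log scale), with 1 point per strain, and dashed lines at the median stretch of each list (89 bp for *3Flag-CSE4* and *pGAL-3Flag-CSE4*, 109 bp for *psh1Δ 3Flag-CSE4*, 129 bp for *psh1Δ pGAL-3Flag-CSE4*). *GAL7* and *GAL10* share 1 stretch of 4159 to 4639 bp, while *GAL4* moves from 359 bp in *3Flag-CSE4* to 4589 bp in *psh1Δ pGAL-3Flag-CSE4*.

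Counts for the windows on either side of the reading frames were below the background as well. Upstream windows were overlapped by an input peak in 6, 5, 5 and 4 members, compared to 93.9%, 93.0%, 94.6% and 88.5% of all genes. Downstream windows were overlapped in 6, 7, 7 and 4 members, compared to 93.3%, 90.2%, 94.1% and 64.2%. *GAL1* and *GAL10* share an upstream peak in a region of which the *GAL* copy may carry bases. That peak was present in all 4 inputs, also in those of the strains without the *GAL* copy. When both genes were left out, the upstream counts were 4, 3, 3 and 2 of the remaining 8 members in the order of strains.

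To follow individual nucleosomes between strains, each of the 44 distinct *3Flag-CSE4* input peaks in the regulon was looked up in the other inputs. An overlapping peak was found for 28 (63.6%, Wilson interval 48.9% to 76.2%) in *psh1Δ 3Flag-CSE4*, where the share over all peaks was 69.5%. It was found for 30 (68.2%, 53.4% to 80%) in *pGAL-3Flag-CSE4*, compared to 85.9% of all peaks, and for 12 (27.3%, 16.3% to 41.8%) in *psh1Δ pGAL-3Flag-CSE4*, compared to 43.6%. The intervals cover counting error only, and neighbouring peaks are not independent. In the last strain 2 of 18 *GAL4* peaks, 3 of 9 *PGM2* peaks, 3 of 8 *GAL3* peaks and 3 of 6 *GAL80* peaks were still overlapped.

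The region between *GAL1* and *GAL10* (chromosome II, 278353 to 279020, 668 bp) holds the Gal4 sites from which both genes are activated. A *GAL* promoter is also in the construct of the overexpressing strains. The bases it duplicates are not given in the sources used here, and wherever it does, fragments of the construct and of the native copy cannot be told apart. Each input had 1 peak in it. The peak measured 61 bp in *3Flag-CSE4* and 81 bp in *psh1Δ 3Flag-CSE4*, both centred 391 bp upstream of *GAL1* and over Gal4 motif matches. With the *GAL* copy it measured 541 bp in *pGAL-3Flag-CSE4*, while that of *psh1Δ pGAL-3Flag-CSE4* measured 571 bp. The share of the region covered was thus 9.13% and 12.1% without the *GAL* copy, and 81% and 85.5% with it. Input peaks of at least that width made up 0.857% and 0.323% of the lists of the overexpressing strains. The *3Flag-CSE4* input peak is shown whole, with the triplets of the match it holds in capitals, and 37.7% of its bases are A or T.
GAL1-GAL10 input peak (chrII:278600-278660, plus strand): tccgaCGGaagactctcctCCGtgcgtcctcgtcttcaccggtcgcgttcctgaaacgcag

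In the ChIP lists this region had 0 peaks in *3Flag-CSE4* and also 0 in *psh1Δ 3Flag-CSE4*. It had 2 peaks in *pGAL-3Flag-CSE4*, of 81 and 131 bp, centred 391 and 186 bp upstream of *GAL1*, which covered 31.7% of it. In *psh1Δ pGAL-3Flag-CSE4* there were 3 peaks of 71, 111 and 191 bp, which covered 55.8%. The first *pGAL-3Flag-CSE4* peak had the same start and end as the *psh1Δ 3Flag-CSE4* input peak, 278590 to 278670.

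Over the regulon as a whole, Cse4 peaks were seen only in the strains with the *GAL* copy, and all but 1 lay outside the reading frames. Of the 10 reading frames, 0 held a ChIP peak in *3Flag-CSE4*, *psh1Δ 3Flag-CSE4* and *pGAL-3Flag-CSE4*, and 1 did in *psh1Δ pGAL-3Flag-CSE4*, compared to 0%, 0.167%, 22.0% and 74.8% of all genes. Of the 3796 genes of at least 939 bp, 0%, 0.211%, 20.9% and 75.4% held a peak. Upstream windows were overlapped in 0, 0, 4 and 9 members, compared to 0.117%, 0.333%, 49.1% and 94.2% of all genes, and downstream windows in 0, 0, 6 and 8 members, compared to 0.250%, 0.616%, 41.3% and 79.4%. *GAL1* and *GAL10* share upstream peaks in a region of which the *GAL* copy may carry bases. When both were left out, 2 of the remaining 8 members had an upstream peak in *pGAL-3Flag-CSE4* and 7 did in *psh1Δ pGAL-3Flag-CSE4*. The first of these counts lies below the 49.1% of all genes. In *psh1Δ pGAL-3Flag-CSE4* the windows were therefore near the background, and the low count was that of the reading frames. In *pGAL-3Flag-CSE4* the counts were small, and no difference from the background was tested.

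Other genes without input peaks had few ChIP peaks in the reading frame as well. Of the 184 further genes of at least 939 bp with no peak in any input, 0 held a ChIP peak in *pGAL-3Flag-CSE4* and 4 (2.17%) did in *psh1Δ pGAL-3Flag-CSE4*. Of the 27 among them with at least 95% unique words, 0 and 1 did (3.7%, Wilson interval 0.657% to 18.3%). Upstream windows of these 27 genes were overlapped in 33.3% and 85.2%, and downstream windows in 48.1% and 63%. How far the input subtraction sets the counts in the frames was not tested.

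There were 10 distinct ChIP peaks in the regulon in *pGAL-3Flag-CSE4*, 51 to 331 bp wide, and all 10 were overlapped by a peak in *psh1Δ pGAL-3Flag-CSE4*. The whole list of that strain is longer (14199 peaks against 4043). The share of all *pGAL-3Flag-CSE4* peaks so overlapped is not given here, so the count describes the regulon peaks only. In *psh1Δ pGAL-3Flag-CSE4* the regulon had 24 peaks of 41 to 581 bp. Total width was 1370 bp in the first and 3664 bp in the second. The *GAL1*-*GAL10* region, of which the *GAL* copy may carry bases, held 2 of the 10 peaks (212 bp) and 3 of the 24 (373 bp). These are included in the counts, widths and distances of this paragraph. A distance of up to 73 bp between a ChIP peak centre and the nearest input peak centre was taken to place the ChIP peak on a mapped nucleosome. Against the *3Flag-CSE4* input this held for 5 of the 10 and 13 of the 24, compared to 87.1% and 78.1% of all peaks of the lists. Against the input of the same strain it held for 6 and 7, compared to 91% and 63.6%. The rule uses centres only, so a ChIP peak can overlap an input peak and still fail it. For example, the *pGAL-3Flag-CSE4* peak from 278770 to 278900 lay inside that strain's input peak (278420 to 278960) but 145 bp from its centre. Median widths were 116 and 96 bp for the regulon peaks and 71 and 91 bp for the lists. How far width sets these shares was not tested. In *psh1Δ pGAL-3Flag-CSE4*, 8 of the 24 peaks lay over 500 bp from any input peak centre of that strain, as did 8.75% of its whole list.

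At *GAL2* the only Cse4 peaks were past the 3′ end. The *pGAL-3Flag-CSE4* peak (292280 to 292390, 111 bp) was centred 399 bp past the end, just before the end of the convergent gene *SRL2*, and the *psh1Δ pGAL-3Flag-CSE4* peak (292190 to 292390, 201 bp) had the same far edge. The nearest *3Flag-CSE4* input centre was 210 bp and 255 bp away. *GAL2* was the only member without an upstream peak in *psh1Δ pGAL-3Flag-CSE4*.

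In the *GAL* cluster the 3′ end of *GAL7* carried the widest peaks of the regulon. They measured 331 bp in *pGAL-3Flag-CSE4*, while *psh1Δ pGAL-3Flag-CSE4* had 581 bp. Between *GAL7* and *GAL10*, a peak of 191 bp (275870 to 276060) in *pGAL-3Flag-CSE4* and of 311 bp (275810 to 276120) in *psh1Δ pGAL-3Flag-CSE4* were both centred 438 bp upstream of *GAL7*, which is 288 bp past the end of *GAL10*. No input peak lay close by in any strain. The nearest *3Flag-CSE4* input centre was 1965 bp away from both. The nearest centre of the strain's own input was 1750 bp away for the first and 2245 bp for the second. Over the whole *pGAL-3Flag-CSE4* list, 0.618% of peaks lay over 500 bp from a *3Flag-CSE4* input centre. The sequence under the *pGAL-3Flag-CSE4* peak is shown because it is the Cse4 peak farthest from any mapped nucleosome in the regulon of that strain, and 64.9% of its bases are A or T. It is followed, for comparison, by the *pGAL-3Flag-CSE4* peak past *GAL2*, at 60.4%.
GAL7-GAL10 peak (chrII:275870-276060, minus strand): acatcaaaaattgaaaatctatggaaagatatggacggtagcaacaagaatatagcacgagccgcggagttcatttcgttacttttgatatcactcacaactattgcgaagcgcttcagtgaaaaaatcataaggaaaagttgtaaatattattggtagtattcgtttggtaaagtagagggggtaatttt
GAL2 3′ peak (chrXII:292280-292390, plus strand): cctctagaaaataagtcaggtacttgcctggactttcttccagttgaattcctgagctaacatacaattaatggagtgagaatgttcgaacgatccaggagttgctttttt

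*PGM2* had 2 peaks past its end in *pGAL-3Flag-CSE4*, 201 and 51 bp wide, and these were spanned by 1 peak of 461 bp in *psh1Δ pGAL-3Flag-CSE4*. In the latter strain there was also a peak 139 bp upstream, and another, centred 544 bp upstream, lay over *YMR105W-A* and overlapped only the far edge of the window. The gene body of *PGM2*, which kept 4 input peak centres in *3Flag-CSE4*, had no ChIP peak.

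*GAL4* had the only ChIP peak inside a regulon reading frame. In *pGAL-3Flag-CSE4* there was a peak of 51 bp centred 89 bp upstream and a peak of 121 bp centred 341 bp past the end, partly over *GYP5*. In *psh1Δ pGAL-3Flag-CSE4* the upstream peak measured 151 bp and the downstream peak 381 bp. A further peak was centred 264 bp upstream, across the 3′ end of *YPL247C*, and another of 61 bp lay 176 bp inside *GAL4*. The peak inside the gene was 20 bp from a *3Flag-CSE4* input centre but 2140 bp from the nearest input centre of its own strain, where the frame held no input peak. Its sequence is given on the strand of the gene (55.7% A or T).
GAL4 peak (chrXVI:82150-82210, minus strand): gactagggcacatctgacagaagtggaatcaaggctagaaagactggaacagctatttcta

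*GAL80* had 1 peak in *pGAL-3Flag-CSE4*, of 101 bp and centred 279 bp past the end. In *psh1Δ pGAL-3Flag-CSE4* it had 3 there, centred 84, 289 and 459 bp past the end and reaching into *AIM32*, and 1 of 91 bp centred 139 bp upstream. The 3 downstream peaks were within 25 bp of *3Flag-CSE4* input centres. *GAL3* had no ChIP peak in *pGAL-3Flag-CSE4*. In *psh1Δ pGAL-3Flag-CSE4* it had peaks of 101 and 91 bp centred 434 and 269 bp upstream, and 1 of 41 bp past its end, across the start of the convergent *YDR010C*. *GCY1* and *MTH1* likewise had peaks only in *psh1Δ pGAL-3Flag-CSE4*. *GCY1* had 1 of 111 bp centred 319 bp upstream, and *MTH1* had 1 of 51 bp centred 163 bp upstream and 1 of 61 bp centred 391 bp past its end.

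**Figure D4:**
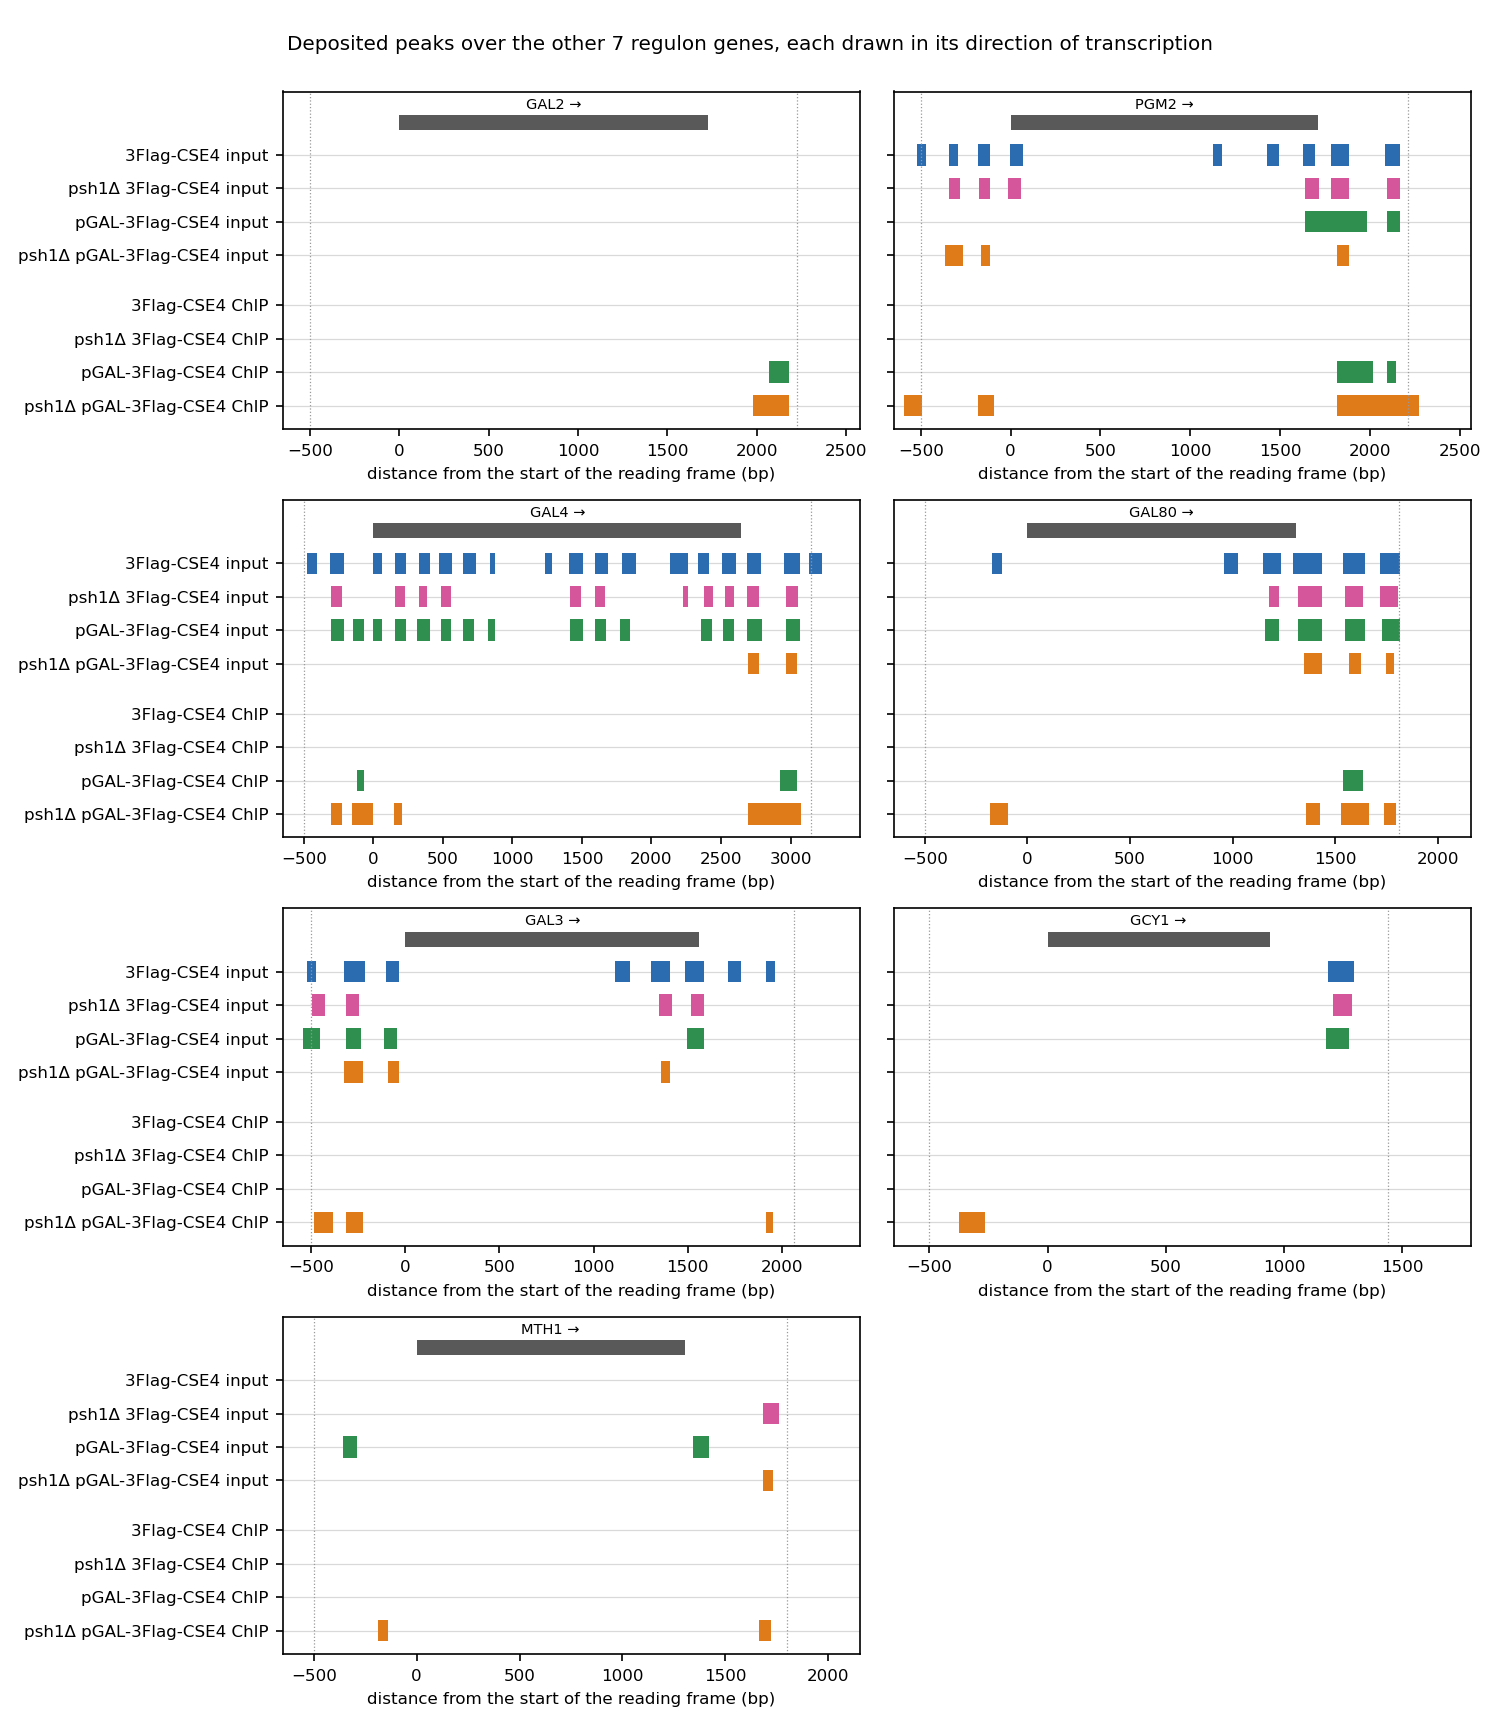
Deposited peaks over *GAL2*, *PGM2*, *GAL4*, *GAL80*, *GAL3*, *GCY1* and *MTH1* (x axis, bp from the start of each reading frame in its direction of transcription, dotted lines at the edges of the 500 bp windows), with 1 row per library and each bar drawn from the start to the end of a peak. ChIP bars appear only with the *GAL* copy and lie outside the frames, except for the 61 bp peak 176 bp inside *GAL4*, while *GAL2* has no input bar in any row.

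Finally, peaks were set against the Gal4 motif matches. Of the 13 matches in the regulon, 5, 3, 4 and 4 were under an input peak and 0, 0, 2 and 7 under a ChIP peak in the order of strains. Outside the *GAL1*-*GAL10* region, 10 matches remained. None of these lay under a ChIP peak in *pGAL-3Flag-CSE4*, and 4 did in *psh1Δ pGAL-3Flag-CSE4*, those of *GAL7*, *GAL80*, *GAL3* and *GCY1* shown above. The 4 matches of *GAL2* and the match of *MTH1* were under no peak of any of the 8 lists. Over all 157 distinct matches in upstream windows of the genome, 52.2%, 38.9%, 46.5% and 37.6% lay under an input peak in the order of strains. In the ChIP lists, 9.55% of them lay under a *pGAL-3Flag-CSE4* peak and 45.9% (Wilson interval 38.3% to 53.7%) under a *psh1Δ pGAL-3Flag-CSE4* peak. Peaks covered 8.32% and 45.2% of the bases of all upstream windows in these strains. A match that a peak covered only in part was also counted as under it. A match spans several bases, so its share is not a like measure to the share of single bases covered.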

How the data were processed

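Peak lists of 8 libraries were used, grouped by their deposited labels. The authors aligned 24 bp paired reads with BWA to sacCer3, kept proper pairs of mononucleosome size, subtracted the input from each ChIP (DANPOS2), scaled it to the centromere coverage of the strain, blanked the ribosomal DNA, and called peaks over a single height set by centromere coverage in *3Flag-CSE4*. Settings for the input peaks were not given in the sources used here. The labels also name CASAVA and SAMtools. The deposited files give peak coordinates on a 10 bp grid, and the deposited score was 0 in every line.

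Coordinates were made 1-based and used with the R64 genome and annotation of RefSeq, in which windows start at reading frames. A window counted when overlapped by at least 1 bp. Python 3.11.15, numpy 2.4.6, scipy 1.17.1, pandas 2.3.3 and matplotlib 3.10.9 were used. Window counting was tested on simulated data (50 draws). By rule, named genes were the 10 members, neighbours whose frame overlaps or adjoins a window with a peak in the shared bases, and 19 other pathway genes as counts. *SRL2*, *COS12* and *YNR071C* are named outside this rule, after their values were seen. The members and lists were chosen with earlier results of these data known. No test between strains was made, with 1 library per strain and type. Intervals are 95% Wilson intervals and cover counting error only, as does the limit of 3 counts for a count of 0. Alternatives were peak centres or 50% of a peak inside the window, windows of 250 bp or ending at the neighbouring frame, peaks of at least 50 bp, merging within 50 bp, leaving out the upstream windows of *GAL1* and *GAL10*, other density references (genes of the same chromosome, genes of at least 1 kb, bases covered) and the length of nucleosomal DNA around each centre. Coverage tracks and reads were not used here.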

Additional observations from a re-analysis of the deposited data

Results flagged for a closer look

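At 2 genes the difference in input peaks between the *psh1Δ* strain and its *PSH1* counterpart went opposite ways with and without the *GAL* copy. For *PGM2* with its windows the difference (*psh1Δ* minus *PSH1*) was -3 peaks without the *GAL* copy, from 9 to 6, and 1 with it, from 2 to 3. For *MTH1* it was 1 without the *GAL* copy, from 0 to 1, and -1 with it, from 2 to 1. With 1 library per strain these differences were not tested. They are raw counts from lists of unequal length. Without the *GAL* copy the lists held 40108 (*PSH1*) and 31268 (*psh1Δ*) input peaks, and with it 39937 and 18908. The share of all genes with such opposite differences is not given here, so the values describe these 2 genes only. In *PGM2* the 351 bp *pGAL-3Flag-CSE4* peak over the gene end spans positions where the *3Flag-CSE4* input has 2 separate peaks.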

How the results depend on the processing

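Of 232 values recomputed under the alternatives for 52 results, 218 stayed within their limits, 14 moved and none changed direction. Without the upstream windows of *GAL1* and *GAL10*, 2 members fewer were counted. The members with an upstream input peak then numbered 4, 3, 3 and 2 in the order of the report, of which the 4 stayed within its limits. Those with an upstream ChIP peak in *pGAL-3Flag-CSE4* numbered 2. With windows of 250 bp, which hold fewer bases, 4 members had a downstream input peak in *psh1Δ 3Flag-CSE4* and 5 a downstream ChIP peak in *psh1Δ pGAL-3Flag-CSE4*. With bases covered in place of centres per kb, the uptake and conversion genes had a ratio of 0.0942 in *3Flag-CSE4* against 0.0301 in *pGAL-3Flag-CSE4*. In the *psh1Δ pGAL-3Flag-CSE4* input the Gal4 circuit had 0.0949 and all members 0.0327. With the length of nucleosomal DNA around each centre, the *GAL1*-*GAL10* region was covered to 22% in all 4 inputs, since each has 1 peak and its width is no longer used. No paired analysis was possible because each strain has 1 library of a type. A stricter peak height could not be applied, because the lists hold none. The input list of *psh1Δ pGAL-3Flag-CSE4* is the shortest, so counts of 0 there limit densities least.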

Other observations

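Of the 19 other genes of galactose metabolism and glucose repression, 19, 17, 18 and 16 had an input peak in the reading frame in the 4 strains in the order of the report, compared to 90.9%, 88.6%, 90.7% and 77.1% of all genes, and their density ratios were 0.851, 0.772, 0.688 and 0.834. ChIP peaks lay in 0 of these frames in *pGAL-3Flag-CSE4*, compared to 22.0% of all genes, so a count of 0 in that strain was not particular to the 10 regulon genes. In *psh1Δ pGAL-3Flag-CSE4* they lay in 14 of the 19 frames, compared to 74.8% of all genes. Upstream windows were overlapped in 7 and 18 of the 19 in these strains (49.1% and 94.2% of all genes) and downstream windows in 16 and 19 (41.3% and 79.4%).

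Among the genes of at least 939 bp with at least 95% unique words, *GAL2* with its windows shared the lack of any input peak with *COS12* and *YNR071C*. These 2 genes are named after their values were seen. *COS12* begins at 2790 on chromosome VII, and *YNR071C* lies between 770440 and 771468 on chromosome XIV.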
